A study of Mus musculus with 19 samples.

Results

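The comparison described here asks what the loss of Indian hedgehog (Ihh) adds to the loss of Desert hedgehog (Dhh) in the adult mouse ovary. It takes the log2 change of double knockout ovaries from their own controls and subtracts the log2 change of Dhh knockout ovaries from theirs. It uses 15 of the 19 arrays of the series, chosen by label: 3 double knockout arrays (Ihh_Dhh_dKO 1 to 3, called DKO), 4 Dhh knockout arrays (Dhh_KO 1 to 4, called Dhh KO) and 8 control arrays (Ihh_Dhh_dhet 1 to 8). The controls were heterozygous for both Dhh and Ihh, per their label. The DKO group lacked both genes, and the Dhh KO group lacked Dhh. All mice were female and aged 2 months, and the labels describe the deletion as restricted to the ovary. The promoter that drove the deletion, and the Ihh alleles of the Dhh KO mice, are not named in the labels. RNA from whole adult ovary was amplified and hybridized to Affymetrix Mouse Genome 430 2.0 arrays, on which each transcript is read by a set of short probes called a probe set. Of 45101 probe sets, 1 per gene was tested for 12415 genes above a minimum level.

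Hedgehog proteins are secreted ligands that bind the receptor Ptch1 and so release the membrane protein Smo from inhibition. Smo then acts through the primary cilium on the Gli transcription factors, which raise transcription of Gli1, Ptch1 and Hhip. The last 2 products bind ligand and limit the signal. In the ovary, Dhh and Ihh are made by the granulosa cells of growing follicles. The cells that respond lie outside the follicle wall, in the steroid-producing theca layer and the stroma.

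The deposited signals were scaled to an equal trimmed mean (500.002), with medians per array between 100.7 and 159.6. The arrays fell into 2 sets by the 3'/5' ratio of the spiked-in BioC control, which was 0.987 to 1.06 on control 1 to 4 and the DKO arrays, and 0.685 to 0.781 on control 5 to 8 and the Dhh KO arrays. Each mutant was therefore taken against the controls of its own set, and the set and the mutant cannot be told apart beyond what those controls take out. Control arrays also resembled each other in pairs across the sets. The deviations of control 1 and control 5 from their set means correlated at 0.536 over genes, and those of 2 and 6, 3 and 7, and 4 and 8 at 0.745, 0.692 and 0.769. Genes are not independent replicates in these values, and the labels do not say whether such pairs share a source. A fit that let these matched controls covary (correlation 0.635), with the pairs known from the values alone, is given beside the lists below whose count it changed. The 3'/5' ratio of Gapdh, a sign of RNA integrity, was 2.08 to 2.79 on the Dhh KO arrays against 1.89 to 2.01 on control 5 to 8. It was 1.68 to 1.78 in DKO against 1.69 to 1.80 on control 1 to 4. The same ratio of Actb overlapped between groups, at 0.963 to 1.096 in Dhh KO against 1.003 to 1.071 on control 5 to 8. It was 0.976 to 1.081 in DKO against 0.984 to 1.046 on control 1 to 4. The part of the Gapdh difference in the results was not tested. Nothing in the labels says that the arrays of a group came from separate animals, so the p-values measure the spread between these samples. Markers of the ovary lay above the filter, a minimum mean level over the 15 arrays. This held for all 15 oocyte genes and 13 of 14 granulosa genes of the lists. The other granulosa gene, Cyp19a1, had no probe set annotated to that gene alone.

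Dhh, the ligand deleted in both mutants, was lost to about the same level in each. It read 944, 606, 1371 and 1311 on control 1 to 4 and 3.85, 4.28 and 14.2 in DKO. It read 811, 621, 1077 and 1085 on control 5 to 8 and 13.2, 5.14, 18.8 and 25.4 in Dhh KO. Both mutant groups lay far below all controls and overlapped each other. The log2 change was -6.20 in DKO (limma, adjusted p = 1.9e-07) and -5.37 in Dhh KO (limma, adjusted p = 9.8e-07). The difference of -0.83 did not pass the test (limma, 95% interval -1.89 to 0.23, adjusted p = 0.42). The weaker Dhh probe set, at 56.7 on average on control 1 to 4, read 27.8 to 38.9 in DKO, which overlaps the lowest of those controls, and 7.84 to 63.5 in Dhh KO. Where the probes lie relative to the deleted part of either gene is not stated in the labels.

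Ihh, the ligand deleted only in DKO by label, was low on all 3 DKO arrays. It read 200.2, 180.4, 139 and 425 on control 1 to 4 and 51.6, 36.3 and 52.7 in DKO. It read 225, 238, 159.97 and 206 on control 5 to 8 and 145, 108, 168 and 139 in Dhh KO. Every DKO array lay below every other array, and the Dhh KO arrays overlapped the lowest control of their set. Ihh fell in DKO (log2 change -2.06, limma adjusted p = 0.0016) and changed by -0.54 in Dhh KO without passing the test (limma adjusted p = 0.5). The difference of -1.51 ± 0.41 (SE) did not pass the threshold (limma, adjusted p = 0.095), but it did with matched controls (adjusted p = 0.037; 0.0060 to 0.21 over the alternatives).

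The genes that Hedgehog signalling induces were lower in DKO and stayed near or above control level in Dhh KO. Hhip, the membrane protein that sequesters Hedgehog ligands, read 123, 149.8, 145 and 284 on control 1 to 4 and 16.1, 16.2 and 11.1 in DKO. It read 192, 245, 235 and 281 on control 5 to 8 and 256, 220.1, 178 and 265 in Dhh KO. The DKO arrays were far below every other array, while Dhh KO and its controls overlapped. Hhip thus differed by -2.97 ± 0.35 (SE) in log2 (limma, adjusted p = 0.00091), with a change of -3.02 in DKO and -0.05 in Dhh KO. The other 3 Hhip probe sets were all lower too.

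Ptch1, the receptor, read 3763, 4048, 3883 and 3921 on control 1 to 4 and 2128, 2381 and 2105 in DKO. It read 4259, 4236, 4351 and 5104 on control 5 to 8 and 5421, 5338, 4959 and 4704 in Dhh KO. The DKO arrays were below every control. All Dhh KO arrays exceeded control 5, 6 and 7, and control 8 lay among them. The difference was -1.01 ± 0.11 (SE; limma, adjusted p = 0.00059), from -0.82 in DKO and 0.19 in Dhh KO, the latter not past the threshold (adjusted p = 0.4). Both weaker Ptch1 probe sets were also lower, by -2.10 and -0.28.

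Gli1, the transcription factor that is itself a target, lay under the level filter and was fitted only without it. It read 93.9, 144, 93.2 and 157 on control 1 to 4 and 13.3, 4.78 and 3.91 in DKO. It read 38.9, 107, 53.0 and 41.5 on control 5 to 8 and 64.1, 75.5, 72.9 and 86.2 in Dhh KO. All DKO arrays were below all others, and the Dhh KO arrays lay inside the range of their controls. The difference without the filter was -3.57 (limma, adjusted p = 0.0026).

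**Figure D1:**
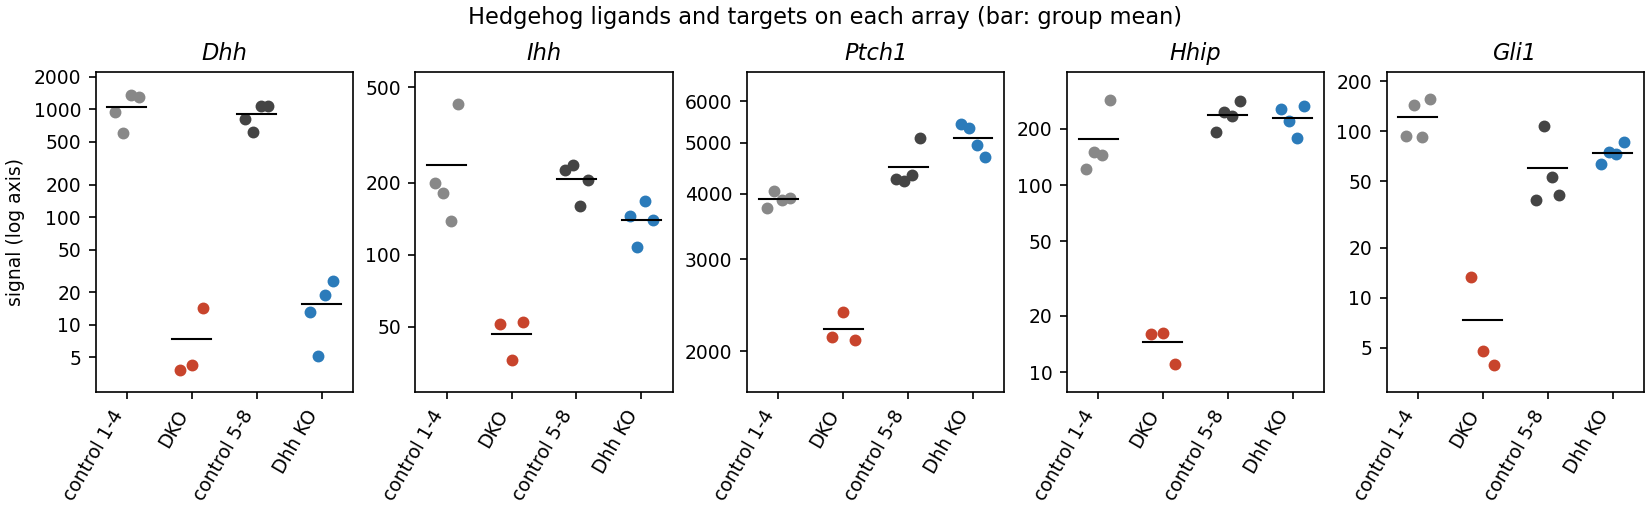
Signals (log axis) of Dhh, Ihh, Ptch1, Hhip and Gli1 on each array, with 1 point per array and a bar at the group mean, for control 1-4, DKO, control 5-8 and Dhh KO. Dhh is low in both mutants, while Ptch1, Hhip and Gli1 are low on the 3 DKO arrays alone. Ihh is lowest on the 3 DKO arrays, and its Dhh KO arrays overlap only the lowest array of control 5-8.

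Among the ligand-handling and transducing genes, 0 of 19 tested members, Dhh and Ihh included, passed the threshold in the difference (limma). Of them, 4 had an unadjusted p under 0.05, and 1, Ihh, passed with matched controls. Their median difference was 0.12 against 0.05 over all genes. Smo, the transducer that Ptch1 restrains, read 2539, 2788 and 2192 in DKO against 2094 to 2761 on control 1 to 4. It read 3148, 2949, 2749.7 and 2758 in Dhh KO against 2574 to 3532 on control 5 to 8. Its difference was 0.12 (95% interval -0.24 to 0.48). Gli2, the main activator, differed by -0.10 (-0.76 to 0.56), and Gli3, mostly a repressor, by 0.41 (-0.04 to 0.85). The intervals of the co-receptors were -0.43 to 0.48 for Boc, -0.94 to 0.69 for Gas1 and -0.75 to 1.89 for Cdon, which varied most between arrays. The Gli inhibitor Sufu differed by 0.29 (-0.17 to 0.75). Among genes of the primary cilium, Kif3a, Kif7 and Ift88 had intervals just above 0 before adjustment (0.10 to 0.75, 0.02 to 0.91 and 0.08 to 1.01), with limma adjusted p of 0.19, 0.28 and 0.22. Evc and Evc2, which tie Smo to the cilium base, differed by -0.44 and 0.57, the ligand-release protein Disp1 by 0.24 and the ligand-modifying enzyme Hhat by 0.20. Scube2, which helps ligand leave the cell, differed by -0.08, the kinase Stk36 by -0.14 and the Gli-degrading adaptor Spop by -0.02. Shh and Disp2 lay under the filter, with signals of 16.7 to 42.5 and 4.62 to 21.0 in DKO.

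Over all genes, the difference passed the threshold for 85 of 12415, or 0.685 percent (limma, adjusted p under 0.05). Of these, 41 were higher (0.33 percent) and 44 lower (0.354 percent) in DKO relative to Dhh KO, and 61 differed at least 2-fold. At an unadjusted p under 0.05 there were 2047. Taken separately, 376 genes (3.03 percent) passed in DKO, 180 up (1.45 percent) and 196 down (1.58 percent), and 1 (0.00805 percent), Dhh itself, passed in Dhh KO, where 1300 had an unadjusted p under 0.05. Of the 85 genes, 75 also passed in DKO and 0 in Dhh KO. The 2 mutants changed in opposite directions for 73 of the 85 and for 54.1 percent of all genes, and choosing genes by the difference favours opposite directions. The median change of the 41 higher genes was 1.02 in DKO and -0.39 in Dhh KO, and that of the 44 lower genes -1.05 and 0.15. Over all genes these medians were 0.02 and -0.03. Psmb9, a subunit of the immunoproteasome, was among the 10 genes that passed in the difference but not in DKO. It read 1404, 1339 and 1499.6 in DKO against 817 to 1256 on its controls, and 519, 520.0, 656 and 393 in Dhh KO against 659 to 863. Its difference of 1.05 (limma, adjusted p = 0.046) held changes of 0.47 and -0.58 that did not pass alone.

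The count depended on the scaling and on single arrays. Quantile normalization left 42 genes (35.7 percent of them higher, against 48.2 percent), and median centring left 33. With matched controls 621 genes passed (5 percent; 362 or 2.92 percent higher and 259 or 2.09 percent lower), all 85 among them, and with the replicate number as a block 129 passed, again with all 85 (575 in DKO alone). Leaving out 1 array gave between 33 (without control 5) and 194 (without control 4), and each array but DKO 2 moved the count by more than 1.5 times. All 85 kept their direction in each of these fits.

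**Figure D2:**
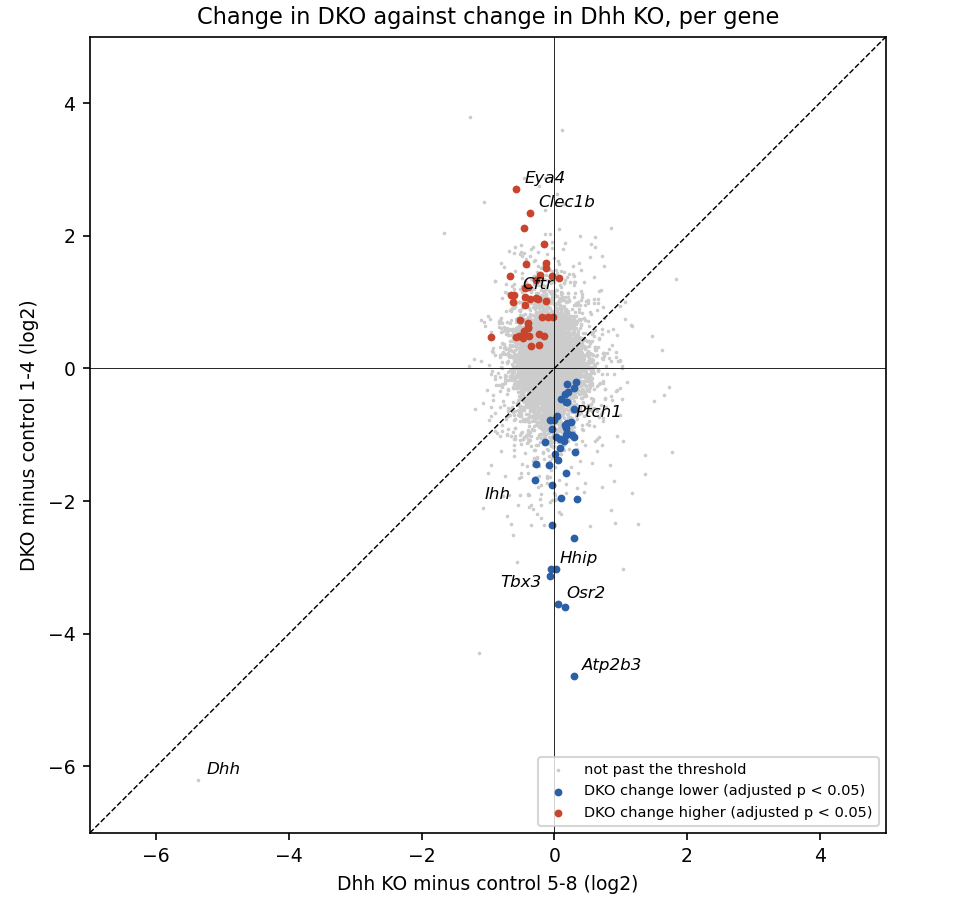
Log2 change in DKO (vertical) against log2 change in Dhh KO (horizontal) for 12415 genes, each against the controls of its own set; points on the dashed line changed equally. Dhh lies near the line at the lower left, and the 85 coloured genes spread up and down near a Dhh KO change of 0.

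The lower genes were led by transcripts with low signals in DKO and signals inside or near the range of the controls in Dhh KO. Atp2b3, a plasma membrane calcium pump, read 361, 610.1, 817 and 307 on control 1 to 4 and 7.71, 10.1 and 23.3 in DKO. It read 164, 256, 423 and 233 on control 5 to 8 and 364, 185, 434 and 330.0 in Dhh KO. No DKO array came near any other array, and the Dhh KO arrays overlapped their controls. The difference was -4.94 ± 0.53 (SE; limma, adjusted p = 0.00059).

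Osr2, a zinc finger transcription factor of the odd-skipped family, had the smallest p. It read 864, 819, 951 and 630.1 on control 1 to 4 and 66.5, 65.7 and 56.1 in DKO. It read 665, 935, 700.1 and 774 on control 5 to 8 and 898, 617, 969 and 739 in Dhh KO. The DKO arrays lay within a narrow band far below the rest, and its difference was -3.61 ± 0.24 (SE; limma, adjusted p = 2.2e-06).

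Tbx3, a T-box transcription factor, read 1051, 1179, 1817 and 669.8 on control 1 to 4 and 178, 123 and 78.2 in DKO. It read 1356, 1459, 1973 and 743 on control 5 to 8 and 1717, 850.2, 1439.7 and 1165 in Dhh KO. Its controls varied among themselves in the same way in both sets, and all DKO arrays were below them. The difference was -3.07 ± 0.49 (SE; limma, adjusted p = 0.011).

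Lamc3, the laminin gamma 3 chain of basement membranes, read 142, 252, 327 and 239 on control 1 to 4 and 26.7, 22.1 and 17.9 in DKO. It read 136, 206, 295 and 183 on control 5 to 8 and 141, 299.8, 252 and 152 in Dhh KO. The difference was -3.05 ± 0.44 (SE; limma, adjusted p = 0.0044), with no overlap between DKO and any other array.

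The other 7 of the 12 largest falls had the same form. Slc47a1, an efflux transporter of organic cations, read 37.4, 17.7 and 14.2 in DKO and 107 to 377 in Dhh KO (difference -2.85). Sorcs2, a sorting receptor, read 151, 140.1 and 179 in DKO and 650.5 to 1049 in Dhh KO (difference -2.33). Enpep, the aminopeptidase that trims angiotensin II, read 334, 125 and 139 and 937 to 1042 (difference -2.30), and was least low on DKO 1. In signals of different sets, each of these genes was lower on all 3 DKO arrays than on any Dhh KO array. Nhsl2 read 343, 262 and 287 in DKO and 900.3 to 1532 in Dhh KO (difference -2.06). Mgarp, a mitochondrial protein abundant in steroid-making tissue, read 4171, 1999.5 and 2805 and 8053 to 10914 (difference -1.75). Smpx, a small protein of muscle, read 196, 129.8 and 89.4 and 396 to 640.3 (difference -1.72). Aebp1, a collagen-binding matrix protein, read 2076, 1559.9 and 1725 in DKO, 5083, 6884, 4859 and 4620.4 in Dhh KO and 3695 to 5067 and 3724 to 4942 in the control sets (difference -1.57). The limma adjusted p of these 7 lay between 0.003 (Aebp1) and 0.048 (Mgarp).

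**Figure D3:**
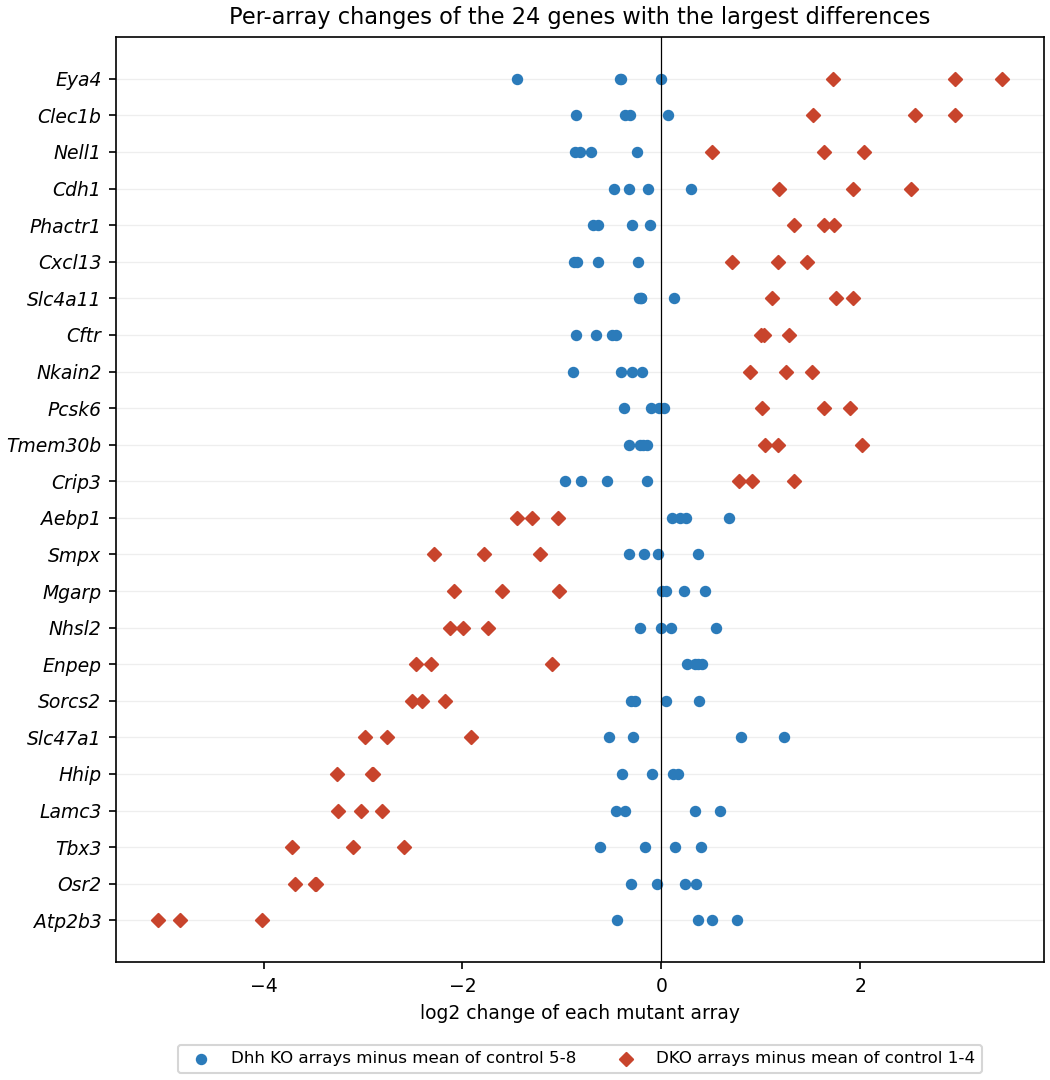
Log2 change of each mutant array from the mean of its own controls for the 12 largest rises and 12 largest falls in the difference; diamonds are the 3 DKO arrays and circles the 4 Dhh KO arrays. DKO and Dhh KO arrays do not overlap for any of the 24 genes, which the rule of choice required, and most circles lie near 0.

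Such separation of the changes from own controls was part of the rule for these 24 genes. It also held for 3523 of all tested genes (28.4 percent: 17.2 percent with DKO above and 11.2 percent below), so it carries no weight by itself. The share of all genes whose signals lay apart across the sets was not counted, so that separation carries no weight by itself either. In whole ovary, fewer cells of a type and less RNA per cell cannot be told apart.

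Genes of steroid synthesis ran lower in DKO than in Dhh KO, and 1 of 7 tested members of the theca list passed. That gene, Fdx1, encodes ferredoxin, which passes electrons to the mitochondrial steroid hydroxylases. It read 11985, 12254, 13639 and 9300.4 on control 1 to 4 and 7996, 6223 and 5503 in DKO. It read 9535, 9968, 9662 and 8226 on control 5 to 8 and 10379.6, 9359, 11605 and 10579 in Dhh KO. The DKO arrays lay below all others, with a difference of -1.01 ± 0.18 (SE; limma, adjusted p = 0.021). The call was lost without control 2, without DKO 3 and with quantile normalization (adjusted p of at most 0.099 over all of these).

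All 7 tested theca members were below 0 in the difference. Their median was -1.55 against 0.05 over all genes, of which 56.6 percent were above 0. The list's 5 other members, Insl3 and Lhcgr among them, had no probe set annotated to that gene alone. The following members did not pass and were picked from the lists after their values were seen, as were the other list members given without a call. Star, which moves cholesterol into mitochondria, read 2289, 2738 and 666 in DKO and 3886 to 5771 in Dhh KO (difference -1.55, limma adjusted p = 0.14). Cyp11a1, the first enzyme of steroid synthesis, read 6016, 4928 and 1055 and 8901 to 9621 (difference -1.94, limma adjusted p = 0.14). Scarb1, the lipoprotein cholesterol receptor, read 2419.9, 2275 and 1248 and 2468 to 4659.6 (difference -1.55, limma adjusted p = 0.075). DKO 3 was the lowest array for all 3 genes. With matched controls 5 of the 7 theca members passed. Cyp17a1, the theca enzyme of androgen synthesis, could not be resolved, because it ran from 74.1 to 8765 on control 1 to 4 and from 144 to 7344 in Dhh KO, against 565, 303 and 76.8 in DKO (difference -3.25, interval -8.28 to 1.78).

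The neighbouring lists of corpus luteum and cholesterol genes had 0 members past the threshold (limma; 2 and 5 had an unadjusted p under 0.05, and 2 of each passed with matched controls). All 7 tested corpus luteum genes, of which Cyp11a1 and Hsd3b1 are also in the theca list, were below 0 (median -1.02). The list's median change on DKO 3 was -2.34, against -0.35 and -0.08 on DKO 1 and 2. Its summed signal ran from 19343 to 54273 on control 1 to 4 and from 17634 to 45557 on control 5 to 8. It was 28788, 28988 and 16018 on DKO 1 to 3 and 35964 to 41618 in Dhh KO. Of 15 genes of cholesterol synthesis and uptake, 14 were below 0 (median -0.52).

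Of 14 smooth muscle genes, 1 passed the threshold (4 with matched controls) and 12 were below 0. Acta2, smooth muscle actin, read 7571, 9186, 7878 and 7205 on control 1 to 4 and 6022, 3229 and 3921 in DKO. It read 5763, 6718, 5651 and 5938 on control 5 to 8 and 6434, 5887, 6884 and 8021 in Dhh KO. DKO 1 lay within the range of control 5 to 8 but below all arrays of its own controls. The difference was -1.07 ± 0.22 (SE; limma, adjusted p = 0.045). Myh11, the smooth muscle myosin heavy chain, read 1221, 236 and 828 in DKO and 2479, 2707, 3963 and 2707 in Dhh KO (difference -1.99, limma adjusted p = 0.095). The list's median was -0.79, and its median change was -0.20, -1.30 and -0.996 on DKO 1 to 3.

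Among transcription factors of gonadal and stromal cells, 3 of 16 tested passed as lower and 2 as higher (7 in all with matched controls). Osr2 and Tbx3 are given above, and Nr2f2, a nuclear receptor of stromal cells, read 3662, 3213 and 2660.4 in DKO and 4366, 4277, 4289 and 3414 in Dhh KO (difference -0.71; limma adjusted p = 0.047). Wt1, a zinc finger factor of gonadal somatic and surface cells, read 1388, 1124, 1033 and 1432 on control 1 to 4 and 1942, 2313 and 2078 in DKO. It read 1415, 1276, 1201 and 1408 on control 5 to 8 and 1359.7, 1236, 1130.3 and 1220.2 in Dhh KO. All DKO arrays exceeded all others (difference 0.87 ± 0.16 SE; limma adjusted p = 0.028). Gata6, a GATA factor of granulosa and theca cells, read 2533, 2448 and 2585 in DKO, 1409 to 1510.0 and 1452 to 1719 in the control sets and 1521, 1929, 1517 and 1184 in Dhh KO (difference 0.80; limma adjusted p = 0.045). Its relative Gata4 differed by 0.16 (limma adjusted p = 0.79). Osr1, the paralog of Osr2, read 48.9, 54.6 and 49.8 in DKO and 75.8, 80.9, 187 and 124 in Dhh KO. Its changes were -1.24 in DKO (limma adjusted p = 0.021) and -0.81 in Dhh KO (adjusted p = 0.34), and their difference of -0.43 did not pass (interval -1.23 to 0.36).

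Single genes of vessels and matrix passed as lower. Emcn, an endothelial surface sialomucin, read 907, 953, 1262 and 921 on control 1 to 4 and 634, 539 and 377 in DKO. It read 991, 1220.3, 1440.4 and 1084 on control 5 to 8 and 1192, 1310.4, 1635 and 1269.7 in Dhh KO. The DKO arrays were below all others (difference -1.17 ± 0.25 SE; limma adjusted p = 0.045). It was 1 of 13 endothelial genes to pass (4 with matched controls), 12 were below 0 and the median was -0.51. Kdr, the endothelial VEGF receptor, differed by -0.28 (interval -0.78 to 0.22). Lamc3 and Lama2, the laminin alpha 2 chain, were the 2 of 12 basement membrane genes that passed. Lama2 read 388, 442 and 282 in DKO and 677, 728, 909.6 and 890.5 in Dhh KO (difference -1.29; limma adjusted p = 0.034), and the list's median was -0.35. Mfap5, a microfibril protein, was the 1 of 14 elastic fibre genes that passed, at 257, 387 and 262 in DKO and 505, 452, 597 and 474 in Dhh KO (difference -1.30; limma adjusted p = 0.043). Of 13 collagens 0 passed (limma; 4 had an unadjusted p under 0.05 and 2 passed with matched controls), with 12 below 0 and a median of -0.30. Aldh1a1, which makes retinoic acid, was the 1 of 9 retinoid genes that passed (2 with matched controls), at 6787, 5289 and 5626 in DKO and 11050.2, 8433, 8490.0 and 9399 in Dhh KO (difference -0.77; limma adjusted p = 0.016).

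**Figure D4:**
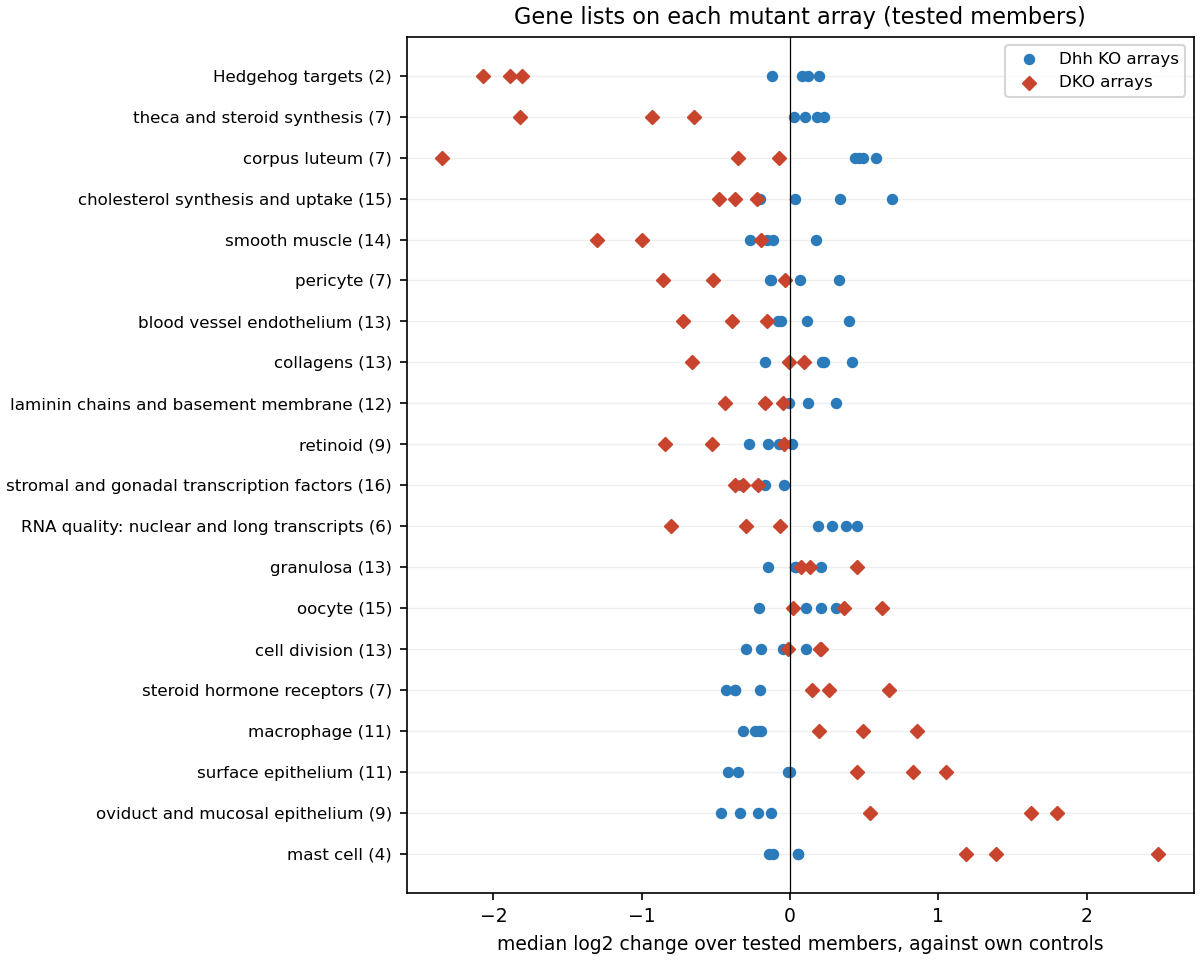
Median log2 change over the tested members of each gene list (number in parentheses) on each DKO array (diamonds) and each Dhh KO array (circles), against the mean of their own controls. Hedgehog target and steroid lists lie lower in DKO and epithelial lists higher. The DKO array that lies apart varies by list, such as DKO 2 for the oviduct list and DKO 3 for the corpus luteum list.

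Among the higher genes were markers of epithelia. Surface epithelium markers were above 0 for all 11 tested members, with a median difference of 1.15, and 3 passed (4 with matched controls). The list's median change was 0.451, 1.05 and 0.83 on DKO 1 to 3, highest on DKO 2. Cdh1, which encodes E-cadherin, read 218, 160.1, 174 and 276 on control 1 to 4 and 787, 468 and 1184 in DKO. It read 244, 164, 216 and 239 on control 5 to 8 and 152, 264, 169 and 194 in Dhh KO. Its difference was 2.03 ± 0.38 (SE; limma, adjusted p = 0.029). Every DKO array lay above every other array, with DKO 2 the lowest of the 3. Krt18, a keratin of simple epithelia, read 870.0, 733, 768 and 507 on control 1 to 4 and 1619, 1495 and 2649 in DKO. It read 711, 575, 689 and 563 on control 5 to 8 and 577, 624, 730.4 and 556 in Dhh KO (difference 1.42; limma adjusted p = 0.034). Its partner Krt8 read 1513, 1558 and 2202 in DKO and 711, 717, 623 and 520.4 in Dhh KO (difference 1.15; limma adjusted p = 0.045). The mesothelial surface markers Upk3b and Msln differed by 0.61 and 1.29 without passing (limma adjusted p = 0.42 and 0.22).

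Markers of the oviduct and other mucosal epithelia were also higher, most of all on DKO 1 and 3. The surface epithelium list's median change was instead highest on DKO 2. Its summed signal, at 9256, 10265 and 13213 on DKO 1 to 3, was highest on DKO 3, and so were Cdh1, Krt18 and Krt8. The summed signal of the oviduct list's 9 tested members was 10412, 2190.4 and 14052 on DKO 1 to 3. It was 1290 to 2978 on the controls and 1397 to 2060 in Dhh KO. All 9 members were above 0 (median 1.85) and 0 passed (limma; 7 had an unadjusted p under 0.05 and 7 passed with matched controls). Ovgp1, the oviduct glycoprotein, read 3729.7, 53.6 and 4679 in DKO and 23.3 to 46.4 in Dhh KO, with 409 on control 1 and 560.3 on control 5. Wfdc2, a secretory epithelial protein, read 699, 139 and 1691 in DKO and 26.9 to 103 in Dhh KO. The list's 4 members under the filter had differences of 1.12 (Pax8), 2.25 (Cldn4), 2.78 (Cldn7) and 1.95 (Muc1) when fitted without it, and Cldn4 passed in that fit (limma adjusted p = 0.044). Of the 14 motile cilia genes only 4 lay above the filter, and their summed signal was 4754 on DKO 3 against 1044 to 1305 on DKO 1 and 2. The part of such tissue in the epithelial differences was not tested. On DKO 2, where Ovgp1 was near control level but Wfdc2 was above all controls and the list's median change was 0.54, the differences were 1.34 for Cdh1, 1.10 for Krt18 and 1.00 for Krt8, and none of these 3 passed. With DKO 2 as the only DKO array, which is then assumed to vary like the other groups, 67 genes passed, 31 of them among the 85. This fit was chosen after seeing the data.

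**Figure D5:**
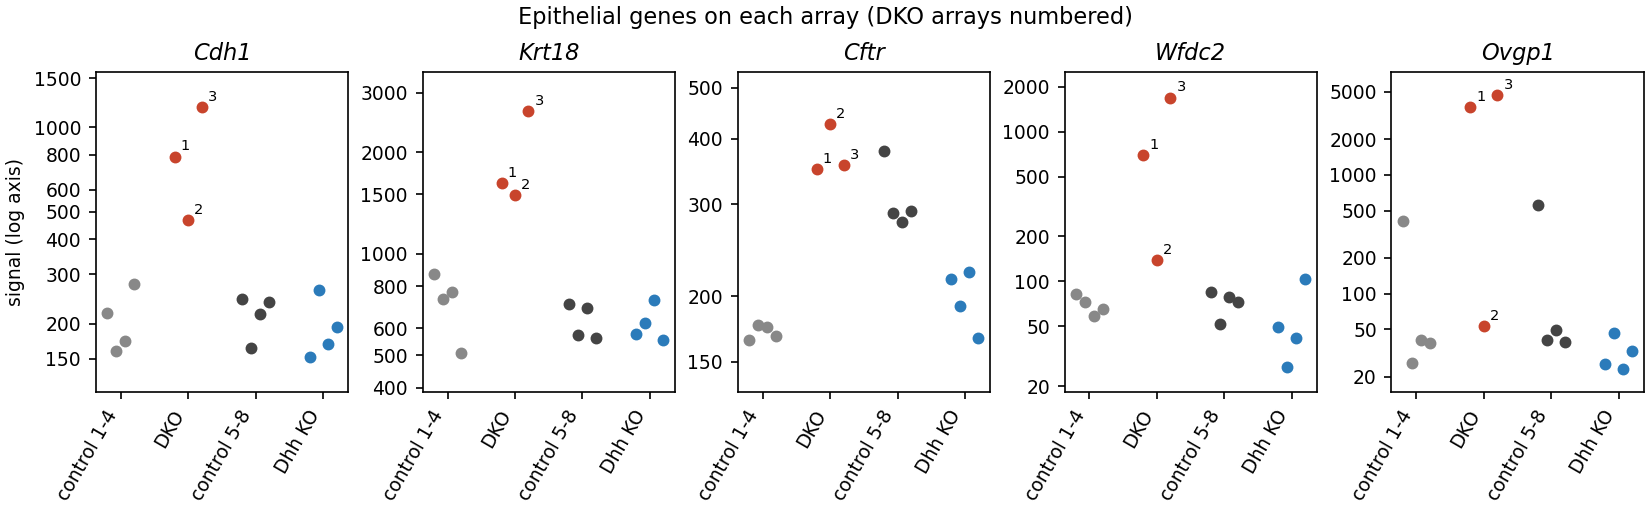
Signals (log axis) of Cdh1, Krt18, Cftr, Wfdc2 and Ovgp1 on each array, with the DKO arrays numbered. Cdh1 and Krt18 are higher on all 3 DKO arrays than on any other array, Ovgp1 is high on DKO 1 and 3 but not on DKO 2, and Cftr separates DKO from control 1-4 while overlapping control 5-8.

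For Eya4, Clec1b, Pcsk6, Phactr1, Slc4a11, Nell1, Nkain2 and Cftr, DKO 2 was not the lowest of the DKO arrays. Eya4, a transcriptional coactivator and phosphatase, read 50.5, 38.0, 101 and 145 on control 1 to 4 and 261, 617 and 856 in DKO. It read 152, 105, 131 and 193 on control 5 to 8 and 47.4, 104, 105 and 141 in Dhh KO. All DKO arrays exceeded all others, and the difference of 3.27 ± 0.62 (SE) was the largest rise (limma, adjusted p = 0.031). Clec1b, the platelet and dendritic cell receptor for podoplanin, read 86.1, 80.8, 85.4 and 72.4 on control 1 to 4 and 510.0, 674 and 247 in DKO. It read 217, 178, 135 and 76.7 on control 5 to 8 and 109, 75.5, 113 and 149.6 in Dhh KO (difference 2.71 ± 0.47 SE; limma adjusted p = 0.018). DKO 3 was the lowest of its group for Clec1b, and for Eya4 it was the highest.

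Pcsk6, a convertase that cleaves precursors of secreted growth factors, read 493, 691, 736 and 672 on control 1 to 4 and 1298, 2000.0 and 2411 in DKO. It read 496, 678, 584 and 559 on control 5 to 8 and 587, 442, 536 and 566 in Dhh KO (difference 1.63 ± 0.26 SE; limma adjusted p = 0.011). Phactr1, a regulator of actin and protein phosphatase 1, read 292, 364 and 391 in DKO against 104 to 118, and 48.4, 46.6, 63.3 and 72.8 in Dhh KO against 59.8 to 89.9 (difference 2.00; limma adjusted p = 0.004). Slc4a11, a membrane transporter, read 208, 370.4 and 328 in DKO and 94.1, 92.8, 94.2 and 121 in Dhh KO (difference 1.73). The DKO arrays exceeded all others for each of these 3 genes. Nell1, a secreted protein, read 250.3, 552 and 731 and 123, 193, 128 and 139 (difference 2.05), and its DKO 1 value lay within the range of control 5 to 8. Tmem30b, a lipid flippase subunit, differed by 1.63, Nkain2 by 1.66 and the LIM protein Crip3 by 1.62. The limma adjusted p of Slc4a11, Nell1, Tmem30b, Nkain2 and Crip3 were 0.029, 0.038, 0.045, 0.045 and 0.035.

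For Cftr and Cxcl13 the control sets lay apart, with control 5 to 8 higher. Cftr, a chloride channel of secretory epithelia, read 165, 176, 174 and 168 on control 1 to 4 and 349, 426 and 356 in DKO. It read 378, 288, 278 and 290.3 on control 5 to 8 and 215, 192, 222 and 166 in Dhh KO (difference 1.72 ± 0.20 SE; limma adjusted p = 0.00091). DKO was higher and Dhh KO lower than its own controls on every array, and DKO minus Dhh KO without the controls was 0.90. Cxcl13, a chemokine that attracts B cells, read 35.0, 35.2, 33.3 and 40.5 on control 1 to 4 and 111, 63.1 and 89.6 in DKO. It read 231, 135, 122 and 104 on control 5 to 8 and 75.4, 73.7, 88.1 and 119 in Dhh KO. The mutant signals overlapped, so that the difference of 1.76 (limma adjusted p = 0.046) rested on the controls. It was -0.02 when the sets were not kept apart, and its adjusted p ran from 0.015 to 0.98 over the alternatives.

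Of the mast cell and macrophage lists 0 genes passed the test, and 2 of each passed with matched controls. All 4 tested mast cell genes were above 0 (median 1.91): the chymase Cma1 read 1429, 530.0 and 144 in DKO and 65.0 to 87.8 in Dhh KO (difference 3.02, limma adjusted p = 0.077). The tryptase Tpsb2, which like Cma1 passed with matched controls, read 862, 379 and 107 and 43.8 to 62.7 (difference 2.99, limma adjusted p = 0.075). Both were highest on DKO 1 and above all controls on DKO 2, while on DKO 3 they lay within the range of control 5 to 8. Of 11 macrophage genes, 9 were above 0, 2 below 0 and 0 passed (limma, 5 with an unadjusted p under 0.05). Their median was 0.76. Only Cd163 of the list passed in DKO, and it was lower there (-1.58, limma adjusted p = 0.043). Its change in Dhh KO was -1.01 (limma adjusted p = 0.39), and its difference was -0.58 (limma adjusted p = 0.62). The adipocyte hormone Adipoq read 1247, 34.9 and 2301 in DKO and 90.9 to 459 in Dhh KO. Of 8 tested adipocyte genes, 6 were above 0, 2 below 0 and 0 passed (limma, with 1 at an unadjusted p under 0.05). Their summed signal was 20081.5, 7564 and 24649 on DKO 1 to 3, against 6974 to 10242 on control 1 to 4. DKO 1 and 3, the arrays with high oviduct markers, were thus also those with high adipocyte sums. The 6 nuclear and long transcripts listed as signs of RNA quality were all below 0 (median -0.72), and 0 passed (limma; 4 had an unadjusted p under 0.05 and 3 passed with matched controls). Their median change was -0.29, -0.80 and -0.07 on DKO 1 to 3 and 0.19 to 0.45 in Dhh KO, and its part in the lower genes was not tested.

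Foxl2, the granulosa transcription factor, read 4309, 3761 and 4228 in DKO and 4668, 4261, 4966 and 3607 in Dhh KO (difference 0.14, interval -0.18 to 0.46). Fshr, the granulosa receptor for follicle-stimulating hormone, differed by 0.01 (-1.02 to 1.03), and Zp3 of the egg coat by 0.12 (-0.64 to 0.88). The list medians were 0.14 over 13 granulosa genes and 0.23 over 15 oocyte genes, with 0 past the threshold in either (limma; 3 and 1 had an unadjusted p under 0.05, and 2 and 0 passed with matched controls). Over all 36 lists, 335 of 438 genes were tested and 18 passed, 6 higher and 12 lower, in 10 of the lists. Among all 12415 genes, 85 passed (0.685 percent) and 2047 had an unadjusted p under 0.05 (limma). The lists were chosen with earlier results of these data known.

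Of the 376 genes that passed in DKO, 75 passed in the difference, and some of the largest DKO changes were not among them. The difference had the sign of the DKO change for all 376, which choosing genes by the DKO change favours. The Dhh KO change had the opposite sign for 180 of the 376, and for 6720 of all 12415 genes. Serpina5, a serine protease inhibitor named after its values were seen, read 1896, 432, 1976 and 2676 on control 1 to 4 and 217, 54.2 and 23.0 in DKO. It read 1987, 476, 1869.6 and 2716 on control 5 to 8 and 1118, 735, 454 and 541 in Dhh KO. The Dhh KO arrays overlapped their lowest control, and all DKO arrays lay lower. The change was -4.29 in DKO (limma adjusted p = 0.0042) and -1.14 in Dhh KO (adjusted p = 0.56). The difference of -3.15 did not pass (limma adjusted p = 0.13), though it did with matched controls. Vgll3, a transcriptional cofactor of the stromal list, read 189.8, 210.1 and 129 in DKO and 1359.7, 691, 801 and 539 in Dhh KO, and its difference of -1.69 did not pass either (limma adjusted p = 0.19), though it too passed with matched controls.

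Of the 36 named genes that passed, 16 kept their call without any 1 of the arrays, namely Ptch1, Hhip, Atp2b3, Osr2, Tbx3, Lamc3, Sorcs2, Enpep, Nhsl2, Smpx, Aebp1, Clec1b, Phactr1, Cftr, Pcsk6 and Aldh1a1. Of these 16, median centring ended the call of Ptch1 (adjusted p = 0.055, the highest over its alternatives), the mean of probe sets and the 19 arrays that of Tbx3, the 19 arrays that of Smpx, and quantile normalization, median centring, 19 and 18 arrays that of Aldh1a1. The call of Cdh1 held in 6 of the 15 fits that each left out 1 array, that of Eya4 in 7 of the 15, Krt18 in 6 of the 15, Wt1 in 6 of the 15, Lama2 in 7 of the 15, Slc4a11 in 6 of the 15 and Crip3 in 5 of the 15. Those of Slc47a1, Acta2, Emcn, Mfap5, Krt8, Nell1, Cxcl13, Nkain2, Tmem30b and Psmb9 held in 3, and those of Mgarp and Gata6 in 2. Every such fit kept the direction of these 36 genes, with adjusted p of at most 0.11 where the call was lost. The 34 weaker probe sets of 19 of these genes all differed in the same direction as the one tested.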

How the data were processed

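RNA of mouse ovary was measured on 19 arrays, of which 15 were used here. Per the labels' protocols, RNA was isolated with PicoPure and, before biotin labelling, amplified by WT-Ovation Pico. The values the authors deposited are linear intensity signals, 1 for each probe set of an array. The submitters' processing notes name MAS5, whose version is not given in the sources used here. The number of arrays limits the precision. Signals were used without further normalization, as log2(signal + 7.06), where 7.06 is the 10th percentile of all signals, so that fold changes of dim genes are understated. Of 45037 probe sets that are not controls, 34945 had 1 gene in the platform annotation, 932 several and 9160 none. Of the single-gene probe sets, 34741 matched RefSeq (assembly GRCm38.p6, names only) and 0 symbols changed. Where a gene had several single-gene probe sets, the one with the highest mean was kept, and genes with a mean under the 40th percentile (a log2 value of 6.25) were left out, leaving 12415.

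One model of 4 means (control 1 to 4, control 5 to 8, Dhh KO, DKO) was fitted with limma 3.58.1 under R 4.3.3. It used lmFit, then eBayes with its trend option, and two-sided tests. Benjamini-Hochberg adjustment was over all genes, with a threshold of 0.05. All tests in the text come from this model unless another fit is named, and ± values are its standard errors. A run on simulated data with known changes had noise independent between arrays, so it does not cover controls that resemble each other in pairs. Levels are signals, and those of DKO and Dhh KO come from different sets. Differences are log2 and, unless stated, set each mutant against its own controls. Figures were drawn with matplotlib 3.10.9, pandas 2.3.3 and numpy 2.4.6 under Python 3.11.15.

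The comparison, the 36 gene lists and the rule for naming genes were chosen with earlier results of these data known. Genes named were the Hedgehog lists, the 12 largest rises and 12 largest falls among genes past the threshold whose DKO and Dhh KO arrays did not overlap, and up to 4 members past the threshold of each list. A further part of the rule, up to 5 genes changed in both mutants with opposite signs, found 0. Nr2f2, Serpina5 and list members given without a call were chosen after their values were seen. Genes of predicted or clone names were skipped.

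The labels give the groups the same replicate numbers without explaining them. Deviations of same-numbered Dhh KO and DKO arrays from their group means correlated at 0.207, 0.122 and 0.173 over genes, all above 0.1, so a fit with the number as a block is given where it changed a count or call. Alternatives covered normalization, pseudocount, filter, choice of probe sets, arrays fitted, blocks, moderation, array weights, a 2-fold threshold and each array left out in turn.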

Additional observations from a re-analysis of the deposited data

Results flagged for a closer look

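A gap test for single arrays (Dixon's, at the 95% level) was applied to the named genes in the 3 groups of 4 arrays, 165 gene and group pairs in all. Of these, 9 had an array apart from the others, and chance alone gives about 1 in 20. Ptch1 read 5104 on control 8 against 4236 to 4351 on control 5 to 7. Hhip read 284 on control 4 against 123 to 149.8 on control 1 to 3. Boc read 447 on control 5 against 343 to 349 on the others of its set, and Cftr read 378 on the same array against 278 to 290.3. Hhat read 307 on control 1 against 406 to 419. Kif3a read 669 on control 4 against 599 to 609.9. Emcn read 1262 on control 3 against 907 to 953. Mfap5 read 914 on control 2 against 685 to 689. In Dhh KO, Slc4a11 read 121 on array 4 against 92.8 to 94.2. Leaving out the array named did not change the direction of the difference for Ptch1, Hhip, Cftr, Emcn, Mfap5 or Slc4a11, which passed the threshold, but it ended the calls of Emcn and Mfap5. Boc, Hhat and Kif3a did not pass it.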

How the results depend on the processing

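The count of the difference was 42 (15 higher, 27 lower) with quantile normalization, 33 with median centring, 621 with matched controls, 268 with array weights and 2837 with no set term (DKO minus Dhh KO directly, and each mutant against all 8 controls), where 71 of the 85 genes were called and 83 kept their direction. With the replicate block it was 129, and 575 for DKO against its controls. In that fit no call among the named genes was lost. Leaving out 1 array gave 33 to 194 for the difference, 184 to 502 for DKO and 1 to 7 for Dhh KO. The DKO count was 250 with a filter at the 60th percentile, 197 at 2-fold, 670 with array weights, 137 with DKO 2 as its only array and 248 with Dhh KO 3 as the only Dhh KO array. With that last choice, made after seeing the data because Dhh KO 3 had the lowest Gapdh ratio of its group, the difference passed for 3 genes. The Dhh KO count was 0 with the 60th percentile filter, under which Dhh itself fell (limma; 1046 had an unadjusted p under 0.05), 0 with all 19 arrays (limma; 1252) and 1 without the array labelled Ihh KO 4. It was 4 for probe sets one by one, 5 for the mean of probe sets, 3 with no set term or no trend, 2 with robust moderation and 9 with array weights. The causes of these shifts were not tested. The other alternatives kept each count within 1.5 times.

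Of 36 called named genes, 12 kept their call in every fit that left out 1 array and every other alternative in which they were tested except the single-array fits. Among the 36, only Cxcl13 changed sign, to -0.023 with no set term. Uncalled genes that changed sign were Boc (-0.0224 with quantile normalization, -0.00803 with median centring, -0.063 with no set term, -0.038 with weights, -0.048 with DKO 2 alone, -0.073 with Dhh KO 3 alone), Smo (-0.14 with the mean of probe sets, -0.22 with no set term), Gli2 (0.15, 0.18, and 0.0042 with DKO 2 alone), Dhh (0.23) and Gas1 (0.040) with the mean of probe sets, Kif3a (-0.29) and Evc (0.37) with no set term, Scube2 (0.22 with weights, 0.41 with DKO 2 alone), Spop (0.091 with weights, 0.094 with DKO 2 alone, 0.12 with Dhh KO 3 alone) and Cdon (-0.42 with Dhh KO 3 alone). Over the fits without 1 array, Boc ran from -0.10 to 0.10, Gas1 from -0.33 to 0.075, Gli2 from -0.28 to 0.080, Scube2 from -0.32 to 0.14, Spop from -0.10 to 0.085 and Stk36 from -0.42 to 0.053. Dim probe sets limit what can be said of Gli1 and of other genes near the filter.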

Other observations

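Secreted signals other than Hedgehog differed for single genes, each without passing the threshold in the difference. Wnt5a, a Wnt ligand, read 1136, 891 and 392 in DKO against 1649 to 2175 on control 1 to 4 and 2154, 1807, 2303 and 1497 in Dhh KO against 1834 to 2431 on control 5 to 8. It fell in DKO (-1.36; limma adjusted p = 0.01), with DKO 3 the lowest, and its difference was -1.20 (limma adjusted p = 0.12). Bmp6, a bone morphogenetic protein, read 1212, 1328 and 1432 in DKO against 439.8 to 865 and 678, 523, 541 and 827 in Dhh KO against 562 to 799. All DKO arrays exceeded all others. Bmp6 rose in DKO (1.04; limma adjusted p = 0.014), and its difference was 1.14 (limma adjusted p = 0.083). Frzb, a secreted Wnt antagonist, rose in DKO (2.00; limma adjusted p = 0.017) at 944, 794 and 189.9 against 109 to 142, with a difference of 1.62 (limma adjusted p = 0.19) that was smallest on DKO 3. Of 15 tested Wnt genes 0 passed in the difference (limma; 5 had an unadjusted p under 0.05 and 2 passed with matched controls, Wnt5a among them), and of 17 BMP and TGF-beta genes 0 (limma; 2, and 2 with matched controls, Bmp6 among them).

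Among 7 receptors of steroid hormones 0 passed in the difference (limma; 2 had an unadjusted p under 0.05, and 1 passed with matched controls). Pgrmc1, a membrane-associated progesterone-binding protein, fell in DKO (-0.70; limma adjusted p = 0.0053), at 2963, 3232 and 2589 against 4089.9 to 5205. It read 3654, 3258, 3248 and 2810.1 in Dhh KO against 3689 to 5082, overlapping DKO, and the difference of -0.32 did not pass (interval -0.66 to 0.03). Of 13 cell division genes 12 were above 0, as were 56.6 percent of all genes (median 0.27) and 0 passed (limma; 1 had an unadjusted p under 0.05). These genes were chosen after their values were seen.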
